A study of Mus musculus with 17 samples.

Results

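The genes Serpinh1, P4ha1, P4ha2, P4hb, Plod1, Plod2, Plod3 and Sparc encode proteins that help collagen fold, become modified and leave the cell. These 8 genes were followed among 19244 protein-coding genes with a loop anchor near a start site. Loops counted for a gene when an anchor lay within 5 kb of any of its annotated transcription start sites (TSS) in mm9. The genes took part in 610 of 1211657 loops, through 26 anchors. H3K27ac HiChIP records contacts between chromatin regions that carry the acetylated histone H3K27ac, a mark of active promoters and enhancers. All libraries came from cells of the mouse embryonic stem cell (mESC) line R1, grown into embryoid bodies (EBs) by the hanging drop method and treated with 0.5 µM retinoic acid (RA) for 4 days (RA-day 4). The 12 bulk libraries were made from unsorted EB cells. The other 5 libraries carry the label cluster2, which is taken here to mean the EB cells that the study sorted by FACS for both surface markers, EpCAM and CD38, and they are called double positive below. No untreated cells, no other line and no sort-negative cells entered the comparison, and although the study describes independent sorts, which library came from which sort is not given in the sources used here. The p-values therefore measure the spread between libraries, which may be technical. In unsorted cells, fewer cells with a contact and fewer contacts per cell cannot be told apart.

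Collagen chains are modified and folded in the endoplasmic reticulum (ER) before they are exported. Prolyl 4-hydroxylase, built from a catalytic alpha subunit (P4ha1, P4ha2) and the protein disulfide isomerase P4hb, stabilises the triple helix. Lysyl hydroxylases (Plod1, Plod2, Plod3) prepare collagen for crosslinks and sugar attachment, Serpinh1 (HSP47) is a chaperone that binds folded procollagen, and Sparc is a secreted protein that binds collagen outside the cell. Extraembryonic endoderm cells, which lay down basement membrane, are known to make Serpinh1 and Sparc abundantly.

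The promoters of the 4 genes whose loops carry most of the results are shown first, as the 250 bases before the start in the RefSeq promoter table (GRCm38.p6), each matched without a mismatch to the mm9 reference. Capitals mark matches to 5 motifs on either strand, so that a match on the other strand appears as its reverse complement. The letters searched were ACGTG, the core of the hypoxia response element, and CCACG, the core of the ER stress response element. The heat shock element was searched as GAANNTTC. The motif of GATA factors was searched as AGATAA. The last motif was the promoter box CCAAT. The first pair can overlap, as in the run CCACGT.
Sparc, chr11:55233583-55233832, minus strand: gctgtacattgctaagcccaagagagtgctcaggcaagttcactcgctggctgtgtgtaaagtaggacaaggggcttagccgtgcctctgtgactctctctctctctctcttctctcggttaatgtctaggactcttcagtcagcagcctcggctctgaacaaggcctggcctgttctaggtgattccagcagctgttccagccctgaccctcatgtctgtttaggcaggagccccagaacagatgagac
P4hb, chr11:120434568-120434817, minus strand: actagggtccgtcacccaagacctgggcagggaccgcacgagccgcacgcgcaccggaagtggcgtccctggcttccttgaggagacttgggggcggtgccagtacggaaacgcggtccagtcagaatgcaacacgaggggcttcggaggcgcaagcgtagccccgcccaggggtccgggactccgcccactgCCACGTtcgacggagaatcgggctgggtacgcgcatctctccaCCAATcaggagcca
P4ha2, chr11:53914176-53914425, plus strand: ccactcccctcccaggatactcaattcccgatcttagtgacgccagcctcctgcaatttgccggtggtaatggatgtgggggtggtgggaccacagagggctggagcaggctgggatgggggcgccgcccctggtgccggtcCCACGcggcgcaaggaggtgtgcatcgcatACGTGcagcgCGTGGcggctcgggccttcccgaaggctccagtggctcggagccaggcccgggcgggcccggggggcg
Serpinh1, chr7:106501750-106501999, minus strand: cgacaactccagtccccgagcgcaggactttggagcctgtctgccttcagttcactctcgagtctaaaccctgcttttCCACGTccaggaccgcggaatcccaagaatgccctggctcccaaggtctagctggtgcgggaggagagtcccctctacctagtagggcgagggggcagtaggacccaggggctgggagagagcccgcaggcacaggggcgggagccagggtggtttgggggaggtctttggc
The Sparc window held none of these letters and had a GC content of 54%, against 63.6% for Serpinh1, 66.8% for P4hb and 70% for P4ha2. The table holds 7 of the 8 genes. Over their full 300 bases, 5 of the 7 promoters held ACGTG, which 19.7% of all 32544 promoters of the table hold, and 5 held CCACG, held by 33.0%. None held AGATAA (11.2% of all promoters), 1 held GAANNTTC (7.89%), 2 held CCAAT (37.4%) and 2 held the MboI site GATC (47.8%) that was cut to make the libraries. These matches are letters in a window and were not tested against the loops.

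The other regulatory sequence shown is the partner of the Sparc promoter in the loop that differed most between the groups. It is an intergenic anchor at chr11:55241074-55245973 (mm9), upstream of Sparc, and its nearest protein-coding start, 7492 bp away, is that of Sparc itself. The middle 300 bases, chr11:55243373-55243672 on the plus strand, are given with the same motifs in capitals.
Sparc upstream anchor: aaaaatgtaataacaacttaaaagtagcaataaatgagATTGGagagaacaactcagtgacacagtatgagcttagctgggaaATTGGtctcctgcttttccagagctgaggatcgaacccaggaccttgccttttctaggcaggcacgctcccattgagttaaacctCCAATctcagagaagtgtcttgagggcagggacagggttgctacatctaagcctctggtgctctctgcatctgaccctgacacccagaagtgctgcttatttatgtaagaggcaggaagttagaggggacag
The 3 marked sites are CCAAT, which 34.5% of the middles of 216057 anchors hold. Across its 4900 bases the anchor held AGATAA 3 times, CCACG 4 times, ACGTG 2 times, CCAAT 6 times and GATC 14 times. These counts were not compared with those of other anchors.

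Between 65148 and 241068 read pairs per bulk library and between 50508 and 118179 per double positive library lay in joined loops. The anchors listed for the groups differed: of the 26 anchors of the 8 genes, 11 (42.3%) occurred in double positive loops, against 6.98% of all 216081 anchors. The 26 were taken within 5 kb of start sites and the whole set was not, so the shares are not like for like. Double positive read pairs joined promoters more often genome-wide, as given below. The composition differed as well, so that TMM normalization, which assumes that most genes do not change, gave factors of 0.57 to 0.80 in bulk and 2.32 to 2.51 in double positive libraries. The median of all 14115 genes tested was a log2 fold change of -0.52 (double positive over bulk) with these factors and 1.21 with library size alone. For that reason each change is also given relative to the median gene. Of the genes that mark the sort, Epcam (log2 fold change 1.05, adjusted p = 0.107, edgeR) and Cd38 (0.65, adjusted p = 0.195) did not pass the test, though both rose with library size alone and with factors shifted until the median gene showed no change (centring). Of the endoderm genes, Gata4 (1.73) and Foxa2 (1.51) rose while Gata6 and Sox17 did not pass, and with library size alone all 4 rose. All 5 neural genes tested (Lhx1, Neurod1, Rfx4, Pax6, Pou3f2) fell, with log2 fold changes from -5.15 to -3.17, as they did under library size alone and centring. The part of these shifts in the results at the collagen genes was not tested.

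Loops of P4hb and Sparc gained read pairs in double positive cells, and those of the other 5 tested genes did not pass the test. The test was edgeR's quasi-likelihood test with TMM factors and an adjusted p under 0.05 over all tested genes. Of the 7 genes tested, 2 rose and 0 fell (0 also at an unadjusted p under 0.05 and with DESeq2), against 20.6% higher and 42.8% lower among all 14115 genes. The median log2 fold change of the 7 genes was 0.19, and that of all genes was -0.52. All 7 lay above the median gene, by 0.12 (P4ha1) to 2.13 (Sparc) on the log2 scale, which was not tested. This side of the median depended on the setting: with anchors found in both groups Serpinh1 (-0.79), Plod3 (-0.71) and Plod1 (-0.29) lay below it. With at least 50 read pairs Serpinh1 (-0.02) and P4ha1 (-0.27) did. At a TSS window of 0 kb Serpinh1 (-0.09), P4ha1 (-0.35) and Plod3 (-0.02) did. P4ha1 also did with a window of 2.5 kb (-0.16) and after thinning (-0.21), among other settings. With library size alone, all 7 rose, as did 7800 of all 14115 genes. Plod2 had too few read pairs for the test.

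**Figure D1:**
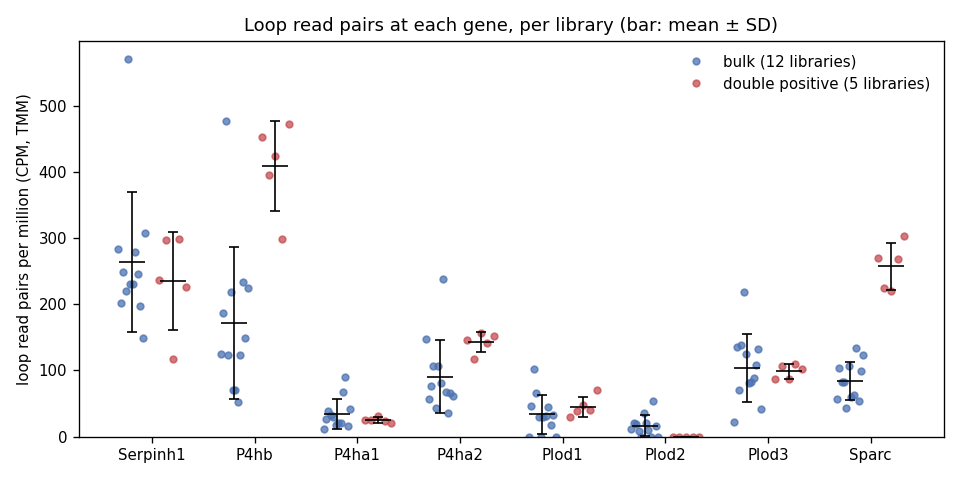
Normalised read pairs (CPM, with TMM factors) in loops of each gene, 1 point a library, for 12 bulk and 5 double positive libraries, with mean ± SD as black bars. For Sparc the 5 double positive libraries (220 to 304 CPM) lay above every bulk library (43.9 to 134 CPM), and for Plod2 all 5 were at 0.

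**Figure D2:**
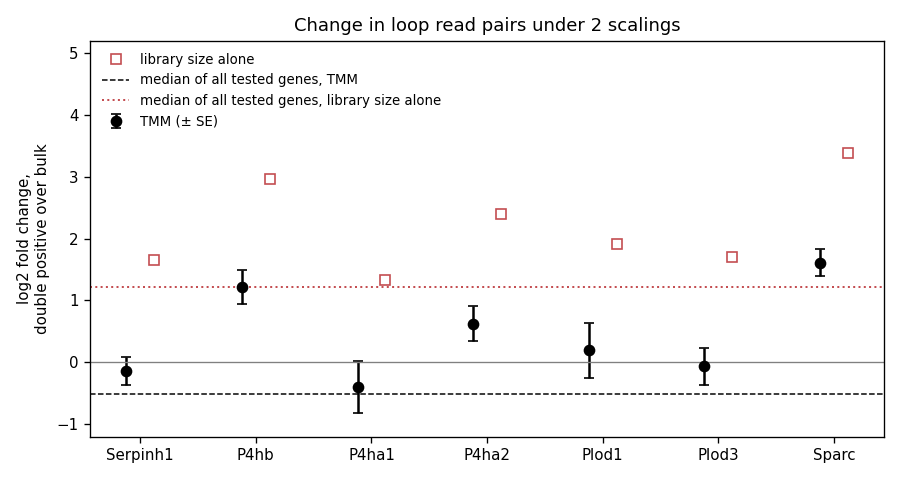
Log2 fold change of each tested gene with TMM factors (black points, ± SE) and with library size alone (open squares), with the median of all tested genes under each as a horizontal line. Under both, the order of the genes was led by Sparc and P4hb, and all 7 genes lay above the median line of their own scaling.

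Sparc (ENSMUSG00000018593.6, chr11:55208002-55233582, minus strand) showed the largest difference of the 7 tested genes. Read pairs in the 5 double positive libraries numbered 74, 46, 28, 34 and 74, against 3 to 20 (median 6) in the 12 bulk libraries, although the bulk libraries were on the whole deeper. As CPM (read pairs relative to library size and TMM factor), the double positive libraries held 270, 225, 220, 268 and 304, and the bulk libraries ranged from 43.9 to 134 with a median of 82.3. The groups did not overlap, a separation seen for 7.22% of all tested genes. The log2 fold change was 1.61 ± 0.22 (SE; 3.06-fold, adjusted p = 1.9e-07), or 2.13 above the median gene. Among the 14115 genes, 94.0% had a smaller log2 fold change.

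The double positive contacts of Sparc all ran through the start site, most of them to a single partner. All 256 double positive read pairs used the anchor over the start (chr11:55230817-55234804, which overlaps an exon), whereas in bulk 58 of 96 did, and no double positive loop used the other 3 anchors, which lie inside the gene. Whether that absence comes from the anchors that were listed for the double positive group cannot be told from the files. The loop from the start site to the upstream anchor printed above, 10713 bp long, had 52, 35, 17, 27 and 45 double positive read pairs and 0 to 3 in bulk, where 7 of 12 libraries had any. Its share of all Sparc read pairs was 68.8% in double positive cells and 11.5% in bulk. Sparc read pairs reached 17 partners in double positive cells and 48 in bulk, so these shares rest on different sets of anchors. The log2 fold change of the loop was 3.51 ± 0.42 (adjusted p = 7.7e-15), and leaving out any library kept it between 3.35 and 3.62. The libraries of the groups did not overlap. With 11 bulk read pairs, this loop reached the 20 read pairs needed for the test only through the double positive libraries. These values therefore describe the difference and are no support for it. When only loops of at least 20 kb were counted, the change of the gene as a whole was 0.37 (adjusted p = 0.31), no longer past the threshold. The other tested partners of the start site were the promoters of Atox1, a copper chaperone gene (41485 bp, 22 double positive and 2 bulk read pairs, log2 fold change 2.57, adjusted p = 0.00084), and of G3bp1, a stress granule gene (49678 bp, 31 and 6, 1.81, adjusted p = 0.0047). Both rose, and of the pair only the Atox1 loop did so after centring (1.90, adjusted p = 0.029). In bulk alone both fell short of the 20 read pairs needed for the test, so their tests are no support for the differences.

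P4hb (ENSMUSG00000025130.5, chr11:120421612-120434567, minus strand), the beta subunit, had the most double positive read pairs of the 8 genes: 124, 81, 54, 38 and 115 per library, 412 in all. The bulk libraries held 4 to 75 with a median of 11. As CPM these were 453, 396, 425, 300 and 473 against 51.8 to 478 (median 137). Replicate 3 of bulk, at 478 CPM, lay above all 5 double positive libraries, and the other 11 bulk libraries lay below them. The log2 fold change was 1.22 ± 0.28 (2.32-fold, adjusted p = 0.00025), 1.73 above the median gene, and without that bulk library it was 1.53. With a TSS window of 2.5 kb it was 0.72 (adjusted p = 0.027), and with anchors found in both groups 0.67 (adjusted p = 0.011). The reads are partly shared with neighbours, because anchors that count for P4hb also lie within 5 kb of starts of Dysfip1, Fam195b and Arhgdia.

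Of the 5 tested loops of P4hb, 2 rose, and neither passed after centring (adjusted p = 0.078 and 0.49) or with the replicate block (0.17 and 0.35). In bulk alone none of the 5 had the 20 read pairs needed for the test, so these tests are no support for a difference. The loop of 8044 bp between the P4hb start (chr11:120431929-120435624) and the Arhgdia start had 10, 5, 2, 0 and 6 double positive read pairs and 3 in all of bulk (log2 fold change 2.20 ± 0.68, adjusted p = 0.0028). The loop with the most read pairs spanned 5362 bp between chr11:120414655-120418094, an intergenic anchor beyond the 3' end of P4hb, and the starts of Dysfip1 and Fam195b. It had 16, 12, 8, 4 and 13 double positive read pairs against 0 to 9 (log2 fold change 1.22, adjusted p = 0.011), and the change was 0.94 (adjusted p = 0.067) without bulk replicate 4 and 1.97 (adjusted p = 0.00044) without bulk replicate 3. This anchor counts for P4hb through an internal start of the annotation. The loops to Mrpl12 and Slc25a10, to Fam195b and Dysfip1 from the start site, and to Anapc11 and Thoc4 had log2 fold changes of 0.59, 0.84 and 0.67, with adjusted p from 0.18 to 0.39.

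The catalytic subunits of prolyl 4-hydroxylase differed in how many read pairs they had. P4ha2 (ENSMUSG00000018906.8, chr11:53913597-53945167, plus strand) had 40, 24, 20, 18 and 37 read pairs in the double positive libraries and 2 to 23 (median 7) in bulk. In CPM the double positive libraries lay close together, from 117 to 157, inside the bulk range of 36.0 to 238, and 2 bulk libraries lay above their lowest value. The log2 fold change of 0.62 ± 0.28 had an adjusted p of 0.056. It passed the threshold in several other settings, among them DESeq2 (0.74, adjusted p = 0.031), anchors found in both groups (1.21, adjusted p = 0.0016) and leaving out bulk replicate 8 (0.84, adjusted p = 0.0054). P4ha1 (ENSMUSG00000019916.8, chr10:58786044-58836052, plus strand) had 7, 5, 4, 3 and 5 read pairs in double positive and 1 to 6 in bulk libraries. The log2 fold change of P4ha1 was -0.40 ± 0.42 (adjusted p = 0.42). With anchors found in both groups it was 1.36 (adjusted p = 0.093), and the sign also turned with library size alone (1.32) and centring (0.11).

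At P4ha2 the loop with the most read pairs was absent from the bulk counts. It joined the start site (chr11:53913443-53917157) with the start of Pdlim4 (chr11:53881709-53883489), a LIM domain protein gene, over 32701 bp. The 5 double positive libraries held 6, 2, 4, 5 and 4 read pairs and the 12 bulk libraries 0 of 1616066, which allows up to 3. Against that limit over the group, the double positive count was 5.35-fold higher with TMM factors and 27.6-fold with library size alone. These folds leave out the error of the double positive count. The loop reached the filter for the test through the double positive libraries alone, so neither its test nor these folds are support for the difference. Both of its anchors had other bulk read pairs. A second loop of P4ha2, 98085 bp to an anchor in Slc22a4, an organic cation transporter gene, had 16 double positive and 4 bulk read pairs (log2 fold change 1.42 ± 0.64, adjusted p = 0.047). In bulk alone it also fell short of the filter, so its test is no support either. P4ha1 had no loop that reached the test. Its most used loop ran 101603 bp to the start of Sept10, a septin gene, with 9 double positive read pairs over 5 libraries and 1 in bulk.

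P4ha2 and Sparc lie on the same chromosome and were joined by 2 loops of 1306071 and 1317510 bp, with 1 and 2 double positive read pairs and 0 in bulk. These counts are at or under 3 and give no fold. No other loop joined 2 of the 8 genes.

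Serpinh1 (ENSMUSG00000070436.5, chr7:106493885-106501740, minus strand), the HSP47 gene, had the most read pairs of the 8 genes in bulk, 289 in 12 libraries (9 to 39 each), and 65, 61, 15, 38 and 55 in double positive libraries. The groups overlapped except that double positive replicate 3 lay below all of bulk, with 148.8 to 570 (median 238) in bulk and 237, 298, 118, 300 and 226 in double positive cells. The log2 fold change was -0.14 ± 0.23 (adjusted p = 0.62), 0.38 above the median gene, and its sign turned with library size alone (1.65), with centring on the median gene (0.39), with libraries thinned to the same total of read pairs (0.04) and without double positive replicate 3 (0.01). Relative to the median gene it was lower with anchors found in both groups (-0.79), at a TSS window of 0 kb (-0.09) and with the replicate block (-0.12). All of these read pairs ran through 1 anchor over the start site (chr7:106499613-106505025).

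Within Serpinh1 the partners were used in different proportions. The loop of 6513 bp to an intergenic anchor (chr7:106507721-106509943) held 57 bulk and 54 double positive read pairs, and its log2 fold change was -0.42 ± 0.36 (adjusted p = 0.30). It fell after centring, as given with the other loops below. The loop of 27855 bp to the start of Gdpd5 (chr7:106528584-106531764), a phosphodiesterase gene, held 23, 19, 5, 9 and 22 double positive read pairs and 0 to 6 in bulk, 78 and 26 in all. It rose with a log2 fold change of 1.14 ± 0.39 (adjusted p = 0.0073). The share of Serpinh1 read pairs in the Gdpd5 loop was 9.0% in bulk and 33.3% in double positive cells. In the near loop it was 19.7% and 23.1%. Bulk read pairs reached 87 partners and double positive ones 35, so these shares rest on different sets of anchors. The Gdpd5 loop did not pass after centring (0.31, adjusted p = 0.56), with the replicate block (adjusted p = 0.10) or without bulk replicate 4 (0.77, adjusted p = 0.090).

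None of the lysyl hydroxylase genes passed the test, and Plod2 had no double positive read pair. Plod1 (ENSMUSG00000019055.8, chr4:147283862-147310876, minus strand) had 8, 8, 6, 5 and 17 read pairs in double positive libraries and 0 to 16 (median 2.5) in bulk, with a log2 fold change of 0.19 ± 0.45 (adjusted p = 0.72). The anchors of Plod1 that occurred in double positive loops also lie within 5 kb of a start of the neighbour 2510039O18Rik. Plod3 (ENSMUSG00000004846.4, chr5:137462889-137472518, plus strand), whose product also attaches sugars to collagen, had 24, 22, 11, 14 and 25 against 2 to 26 (median 8). The log2 fold change of Plod3 was -0.07 ± 0.29 (adjusted p = 0.85), with a sign that turned under library size alone (1.70) and centring (0.46). Its only anchor is shared with Znhit1. The tested loop of Plod3, 24578 bp to the starts of Fis1 and Cldn15, had 17 double positive and 13 bulk read pairs (log2 fold change 0.01 ± 0.62, adjusted p = 0.99).

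Plod2 (ENSMUSG00000032374.8, chr9:92437061-92503266, plus strand), which modifies the ends of collagen chains, was the gene with the fewest read pairs of the 8. It had 18 read pairs in bulk, spread over 9 of 12 libraries and 17 loops, and 0 of 409248 in the double positive libraries. None of its 7 anchors occurred in any double positive loop. Whether the 0 comes from the anchors that were listed for that group cannot be told from the files, so no fold is given. Since it fell short of 20 read pairs, it was called lower only when no filter was used. Its most used loop lay inside the gene, spanned 17865 bp and had 2 bulk read pairs. The surroundings held no double positive read pairs either: loops within 1 Mb of the Plod2 starts that did not touch its anchors had 81 bulk and 0 double positive read pairs.

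In all, 13 loops of the 8 genes reached the test, and 8 rose and 0 fell (0 also at an unadjusted p under 0.05 and with DESeq2), against 38.1% higher and 22.4% lower among all 5369 tested loops. Of all 610 loops, 63.0% had 1 read pair over the 17 libraries. The median log2 fold change of the 13 was 1.22 and that of all tested loops 0.78. After the TMM factors were shifted until the median tested loop showed no change, 3 of the 13 rose (Sparc to its upstream anchor, Sparc to Atox1 and P4ha2 to Pdlim4; 16.8% of all loops) and 1 fell (Serpinh1 to its near anchor, log2 fold change -1.25, adjusted p = 0.0024; 27.8% of all). The count of higher loops fell to 5 without bulk replicate 4 and to 4 without double positive replicate 1 or 5. It was 2 with the replicate block and 3 after thinning. In the same order, 1639 of 4855, 1206 of 3944, 1251 of 4124, 827 of 3985 and 1065 of 1642 of all tested loops rose. For the Sparc loop of 10713 bp every double positive library lay above every bulk library, as it did for 8.01% of all tested loops. The P4ha2 loop to Pdlim4 did so too. With 11 and 0 bulk read pairs, both loops reached the filter only through the double positive libraries. Loops can pass the filter through the group where they are high, so these counts are descriptions.

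**Figure D3:**
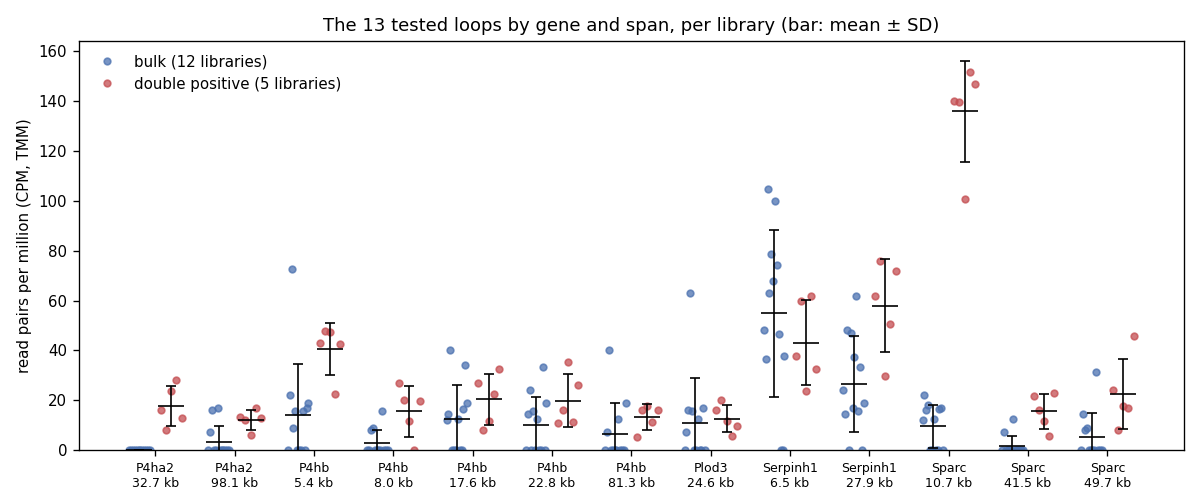
Normalised read pairs (CPM, with TMM factors of the loop counts) of the 13 tested loops, labelled by gene and span, 1 point a library with mean ± SD as black bars. The Sparc loop of 10.7 kb reached 101 to 152 CPM in double positive libraries against 0 to 22.0 in bulk, while the other loops of the 8 genes stayed below 80 in every double positive library.

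**Figure D4:**
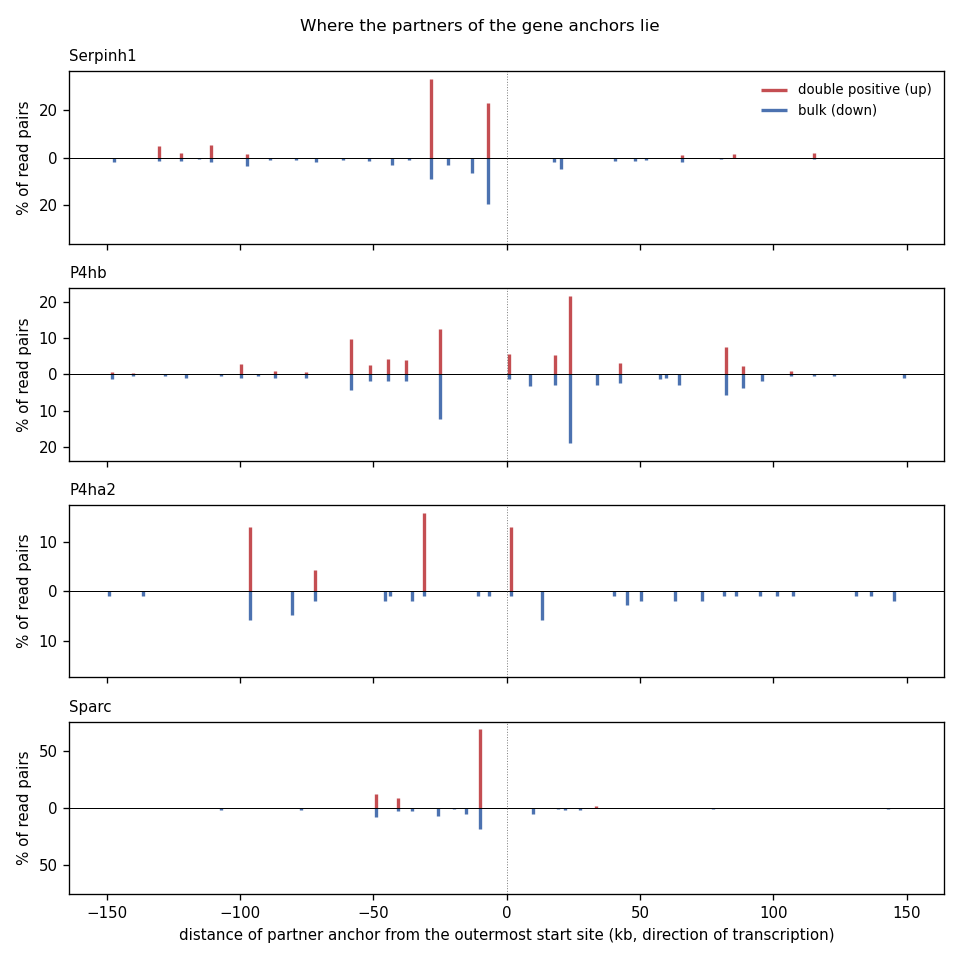
Share of a gene's read pairs (percent, pooled over the libraries of a group) by the distance of the partner anchor from the outermost start site, in kb along the direction of transcription, for double positive (up) and bulk (down). A single upstream partner dominates Sparc in double positive cells, and Serpinh1 has 2 leading partners, of which the farther one took 33.3% of double positive and 9.0% of bulk read pairs.

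The partners of Serpinh1, P4ha1, P4ha2, Plod1 and Plod3 were more often promoters in double positive cells, as they were genome-wide, while the shares of Sparc and P4hb lay closer together and Plod2 had no double positive read pair. Among all read pairs with a promoter anchor, 31.4% in bulk and 73.2% in double positive libraries joined 2 promoter anchors, of the same gene or of different genes. The shares of single genes leave out pairs between their own anchors, so the values are not like for like. Such pairs numbered 7 of 104 in bulk and 18 of 139 in double positive cells at P4ha2, and 16 of 212 and 45 of 412 at P4hb. For Serpinh1 the promoter share was 31.5% (95% Wilson interval 26.4 to 37.1) in bulk and 71.8% (65.7 to 77.2) in double positive cells. For Plod3 it was 52.5% and 95.8%. P4ha1 (32.4% and 83.3%), P4ha2 (38.5% and 72.7%) and Plod1 (52.1% and 81.8%) had higher shares in double positive cells too. P4hb was at 79.2% (73.3 to 84.2) and 87.4% (83.8 to 90.2), with intervals that meet. Sparc had 27.1% (19.2 to 36.7) in bulk and 28.9% (23.7 to 34.7) in double positive cells, where 182 of 256 read pairs ended at an anchor without a promoter. These shares are pooled over libraries and cover counting error only. Whether Sparc differed from the other genes was not tested.

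The share of read pairs in loops over 100 kb fell at Sparc. In the 5 double positive libraries it was 6.8%, 6.5%, 21.4%, 2.9% and 9.5%, and in the 10 bulk libraries with at least 5 read pairs it ranged from 20% to 66.7% with a median of 37.5%. Only replicate 3 of the double positive libraries reached the bulk range. The mean fell by 34.0 percentage points, from 43.4% ± 17.1 (SD, n = 10) to 9.4% ± 7.1 (SD, n = 5; two-sided exact permutation p = 0.0023, adjusted over 7 genes 0.016). Over all loops the share fell by 10.5 percentage points, from 55.2% ± 1.5 (SD, n = 12) to 44.7% ± 0.3 (SD, n = 5; exact permutation p = 0.00016, the smallest possible). Without double positive replicate 1, 2 or 4 the adjusted p at Sparc was 0.056, and with a limit of 200 kb the difference was -26.0 points (adjusted p = 0.15). The share restates the increase of the loop of 10713 bp: the read pairs over 100 kb numbered 38 in bulk and 22 in the double positive libraries, and 176 of 256 double positive read pairs lay in that loop. Of the other 6 genes tested, P4hb had 33.0% ± 12.9 in 11 bulk and 19.99% ± 1.97 in 5 double positive libraries (exact permutation p = 0.044, adjusted 0.13), and none passed the adjusted threshold. P4ha1 had enough read pairs in 4 bulk and 3 double positive libraries, which allow an exact p no smaller than 0.029, and its 3 double positive libraries were all at 100%.

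**Figure D5:**
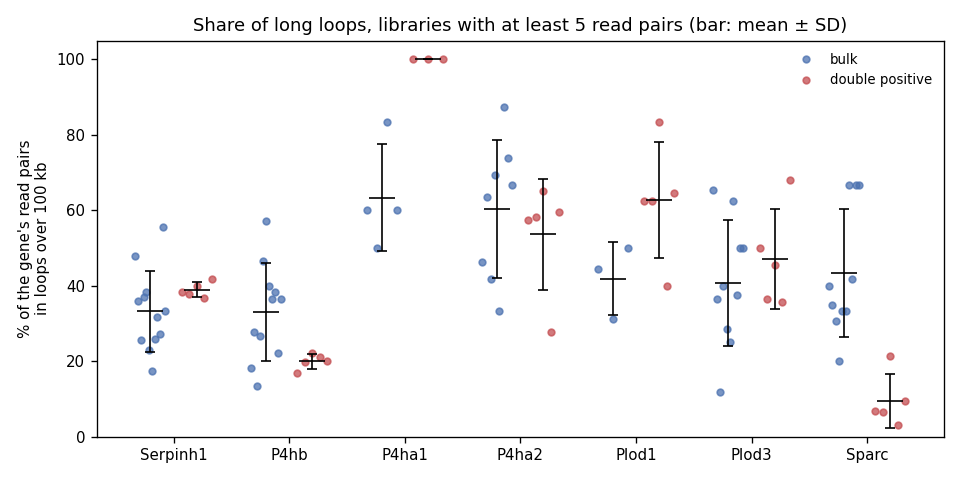
Percent of a gene's read pairs that lay in loops over 100 kb, 1 point a library with at least 5 read pairs of the gene, with mean ± SD as black bars. Double positive libraries lay between 2.9% and 21.4% for Sparc and between 16.9% and 22.2% for P4hb.

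The surroundings of the genes had lower CPM in double positive cells with TMM factors. Loops with both anchors within 1 Mb of the start sites and no anchor of the gene had 1479 ± 330 CPM in bulk and 640.5 ± 36.0 CPM in double positive libraries around Sparc (SD, n = 12 and 5). Around P4hb the values were 3163 ± 1229 and 2081 ± 257 CPM, and around Serpinh1 they were 1797 ± 583 and 427 ± 26.4 CPM. The log2 ratio of the group means was between -3.00 (P4ha1) and -0.60 (P4hb) for the 7 genes with double positive read pairs there. With library size alone this ratio was above 0 for P4ha2, P4hb, Plod1, Plod3 and Sparc (0.03 to 1.16) and below 0 for Serpinh1 (-0.26) and P4ha1 (-1.21). So the direction depends on the scaling, and Sparc itself rose under both. These sums are descriptions and were not tested.

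Other genes of the collagen pathway moved in both directions. Of 19 tested among 20 further genes of folding and modification in the ER, 6 rose and 3 fell, with a median log2 fold change of 0.35. With library size alone 15 rose and 2 fell, and after centring 11 rose and 3 fell. The largest increase was at Crtap (2.37 ± 0.44, adjusted p = 2.1e-05), which works with prolyl 3-hydroxylase. The lowest fitted value was at Pdia6, a disulfide isomerase, with 25 bulk and 0 double positive read pairs. Of 10 tested among 12 genes of ER export, 5 rose and 3 fell (median 0.78), against 7 and 2 both with library size alone and after centring. Of 7 tested among 14 genes of extracellular processing and crosslinking, 1 rose and 3 fell (median -1.19), but with library size alone 3 rose and 1 fell (median 0.50). Of the 6 relatives of Sparc, all 4 that were tested fell (median -2.29), while Sparc itself rose. Of these 4, 2 fell both with library size alone (median -0.61) and after centring (median -1.79). Among the genes that fell, Hsp90b1, Pdia6, Klhl12, Kdelr2, Adamts2 and Smoc1 had 0 double positive read pairs, while the others that fell had some. As for Plod2, whether such a 0 comes from the anchors listed for that group cannot be told from the files. Of all 14115 tested genes, 20.6% were higher and 42.8% lower with TMM factors. With library size alone 7800 of them rose and 3702 fell, and after centring 4505 rose and 5037 fell. The counts of the lists are therefore given as descriptions.

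Among the genes on other chromosomes whose CPM followed Sparc most closely over the 17 libraries were Stra6 (Pearson r = 0.92) and Orai3 (0.90). For P4ha1, the gene with the lowest fitted change, they were Fbxo24 (0.76), Gnat1 (0.72) and 8430419L09Rik (0.72). All were computed on log2(CPM + 1), the libraries share groups and depth, and the values are descriptions.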

How the data were processed

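Per the labels, the authors processed H3K27ac HiChIP reads with HiC-Pro on mm9. The deposited values are counts of read pairs for each pair of anchors, with no normalization, so a loop without a read pair does not appear. Digestion was with MboI. Read pairs carry no molecular identifiers and are not independent molecules, so intervals cover counting error only.

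Anchors that overlapped between any of the 17 libraries were merged, which gave 216081, and 700 read pairs with both ends in 1 merged anchor were dropped. Read pairs were summed per protein-coding gene over loops that reached one of its TSS to within 5 kb (GENCODE annotation on mm9). Genes and loops with at least 20 read pairs, in at least 5 libraries, were tested with edgeR 4.0.16 in R 4.3.3 (quasi-likelihood, TMM, Benjamini-Hochberg over all features, adjusted p under 0.05). Shares over 100 kb used exact permutation tests over libraries with at least 5 read pairs of the gene. CPM were scaled by TMM factors. For a count of 0 the limit was 3 counts over the group.

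Tests were checked on simulated counts. There TMM on the loop counts left unchanged loops higher in double positive cells, so a fit centred on the median was added after seeing the data. Other alternatives were TMMwsp, DESeq2 1.42.0, library size alone, filters, TSS windows, shared anchors, spans, thinning, the replicate block and leaving out each library. The genes and lists were chosen with earlier results of these data known. The text names all 8 genes, for each the tested loop with the most read pairs and that with the smallest p (or, with none tested, the most used loop), and the genes at their anchors. The other tested loops are named in addition, and some items the rule covers are not reported here. Mia3 was not found in the annotation, and Sox3 had no anchor.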

Additional observations from a re-analysis of the deposited data

Results flagged for a closer look

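Among 28 groups of library values, 3 held a library far from the others, where chance marks about 1 group in 20. The Sparc loop of 10713 bp had 101 CPM in double positive replicate 3 and 139.5 to 152 CPM in the other 4, a value still above every bulk library. The P4hb loop of 5362 bp had 22.5 CPM in double positive replicate 4 against 42.4 to 47.8 CPM in the others. At P4ha2, 27.8% of the read pairs of double positive replicate 4 lay in loops over 100 kb, against 57.5% to 65% in the others.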

How the results depend on the processing

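The increases of Sparc (1.54 to 1.67) and P4hb (1.103 to 1.53) kept their direction and threshold when any 1 library was left out. Of 217 recomputed gene fold changes, 188 kept direction and side of the threshold, 12 newly passed, 1 no longer passed and 16 reversed. For the loops these were 150, 3, 12 and 18 of 183, and for the shares over 100 kb 144 of 150 kept both. The cause of the changes was not tested.

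With library size alone 7 genes and 13 loops rose, and the fold changes of Serpinh1 (1.65), P4ha1 (1.32), Plod3 (1.70) and the Serpinh1 loop of 6513 bp (1.91) reversed. Centred on the median, chosen after seeing the data, Serpinh1 (0.39), P4ha1 (0.11), Plod3 (0.46) and the Plod3 loop (-0.79) reversed, and 3 loops rose and 1 fell. Reversed too were Plod3 with DESeq2 (0.039) and with spans of at least 20 kb (0.21), P4ha1 with shared anchors (1.36), and Serpinh1 (0.042) and Plod3 (0.0090) after thinning. Without a filter 1 gene fell (Plod2), and with spans of at least 20 kb 1 rose (P4hb). At least 50 read pairs left 1 loop higher and 1 lower, against 334 and 197 of all 850 loops tested there. At least 10 gave 19 and 4, against 6515 and 4725 of 16669, with the Serpinh1 loop of 6513 bp at 0.23. Thinning left 3 higher, against 1065 of 1642. These settings tested different numbers of loops, so the counts are not like for like. Among all tested genes, 2906 rose and 6040 fell, against 7800 and 3702 with library size alone, 4505 and 5037 when centred, and 2534 and 988 of 9845 with shared anchors, 2978 and 9771 without a filter, and 2634 and 2981 of 10851 after thinning. Of all tested loops 2044 rose and 1203 fell, against 4129 and 740, 903 and 1494, 2493 and 552, and, after thinning, 1065 and 115.

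Libraries with the same replicate number did not deviate together (r from -0.014 to 0.010). With counts this sparse, that cannot exclude that the numbers pair them. With the replicate block on replicates 1 to 5, 2 loops rose, P4ha2 passed (0.72, adjusted p = 0.044), Plod1 was at -0.11 and the Plod3 loop at -0.54. The same libraries without the block gave 4 loops, -0.29 and -0.76. Of all 3985 loops tested there, 827 rose with the block and 1142 without it. For the shares, Serpinh1 turned to -5.003 points at a limit of 50 kb and P4ha2 to 5.003 at 200 kb. No share passed (0 of the genes) at 200 kb. With shared anchors none passed either, but only Serpinh1, P4ha2, P4hb and Plod3 could be tested there, so Sparc was not.

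Leaving out 1 library at a time gave 2 to 3 higher genes, 4 to 7 higher loops and 0 to 1 differing shares. Serpinh1 ran from -0.24 to 0.011, Plod1 from -0.042 to 0.50, Plod3 from -0.18 to 0.043 and the Plod3 loop from -0.25 to 0.66. With a median of 6 to 24 bulk read pairs at the most used genes, small differences were not detectable at this depth. Larger ones could be missed too. In the simulated counts with TMM, a change of 1 on the log2 scale was recovered for 25% of genes and 13% of loops. A change of 2 was recovered for 72% of genes and 56% of loops.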
